A study of Arabidopsis thaliana with 18 samples.

Results

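A stretch of chromosome 4 of Arabidopsis thaliana that holds the protein-coding gene AT4G22410 and the pseudogene AT4G22415 was followed across 9 lines. Its members are the windows of the authors' methylation table that lie wholly within 11814851 to 11824750 (TAIR10), 197 of the 43887 windows in the table. Windows are 100 bp long and start every 50 bp, so neighbours overlap. Every second window, 99 in all, was used here, and 95 of these had a level in all 9 lines. The region was chosen from measured values: a gained stretch at 11818851 to 11819750, where epiRIL 232 had read above wild type, and the windows with a level of 0.2 or more in wild type, where other lines had read below it. The levels that made this choice are given as a description, and no test was made on them.

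Bisulfite sequencing had been done on genomic DNA of aerial rosette tissue, harvested 21 to 22 days after sowing under long days (16 h of light, then 8 h dark). The lines were 4 epiHybrids (92, 150, 193 and 232), the 4 epigenetic recombinant inbred lines (epiRILs) with the same numbers, and the wild type Col-Wt. EpiRILs have nearly the DNA sequence of Col-Wt but inherited some chromosome segments through a poorly methylated ancestor, in this population a mutant of DDM1, as is known from its published description. The epiHybrids are crosses between an epiRIL and Col-Wt, since the deposited differences from the mid-parent level are those computed with these as parents, and the labels give no further genotype. Each line is 1 inbred line or 1 cross and had 2 libraries, which the authors had merged, so there is no error between plants or libraries for any value, and no test between lines could be made. An SD given here is the spread over windows along the chromosome.

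In plants, cytosines are methylated in 3 sequence contexts. CG methylation is copied at replication by MET1, CHG methylation (H is any base but G) is kept by CMT3, and CHH methylation is renewed by CMT2 and by the RNA-directed pathway that uses DRM2. DDM1 is a chromatin remodeller that gives methyltransferases access to transposons and their remnants. Methylation lost in its absence can stay lost for generations after the functional gene is crossed back, and loci targeted by small RNAs can regain it. The levels here pool all contexts into 1 fraction from 0 to 1, so a change in 1 context cannot be told from a change in another.

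By position in the RefSeq annotation (TAIR10.1), AT4G22415 lies inside AT4G22410, and both run past the last window of the table. A window over the pseudogene is therefore also a window over the gene. The windows below AT4G22410 cover the end of AT4G22390 and all of AT4G22400, both protein-coding. Strand, exons, introns and UTRs were not used here, so low and high refer to chromosome coordinates and not to transcription. No role is given for these 4 loci in the gene table.

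The 95 windows fell into 9 of the gained stretch, 41 with a Col-Wt level of 0.2 or more, called methylated windows below, and 45 others. Of the 41 methylated windows, 40 had their middle in AT4G22415, and the remaining one, at 11820151 to 11820250, lay just below it. The window nearest the limit inside it was 11821751 to 11821850, with 0.224 in Col-Wt, and the nearest outside was 11820451 to 11820550, with 0.178. The number of cytosines read was the same in all 9 lines in 37 of the 41 methylated windows and in 4 of the 9 gained ones. It was at least 13 in every methylated window and line, but only 3 in Col-Wt in the first gained window. Read depth is unknown, since the table counts cytosines and not reads.

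**Figure D1:**
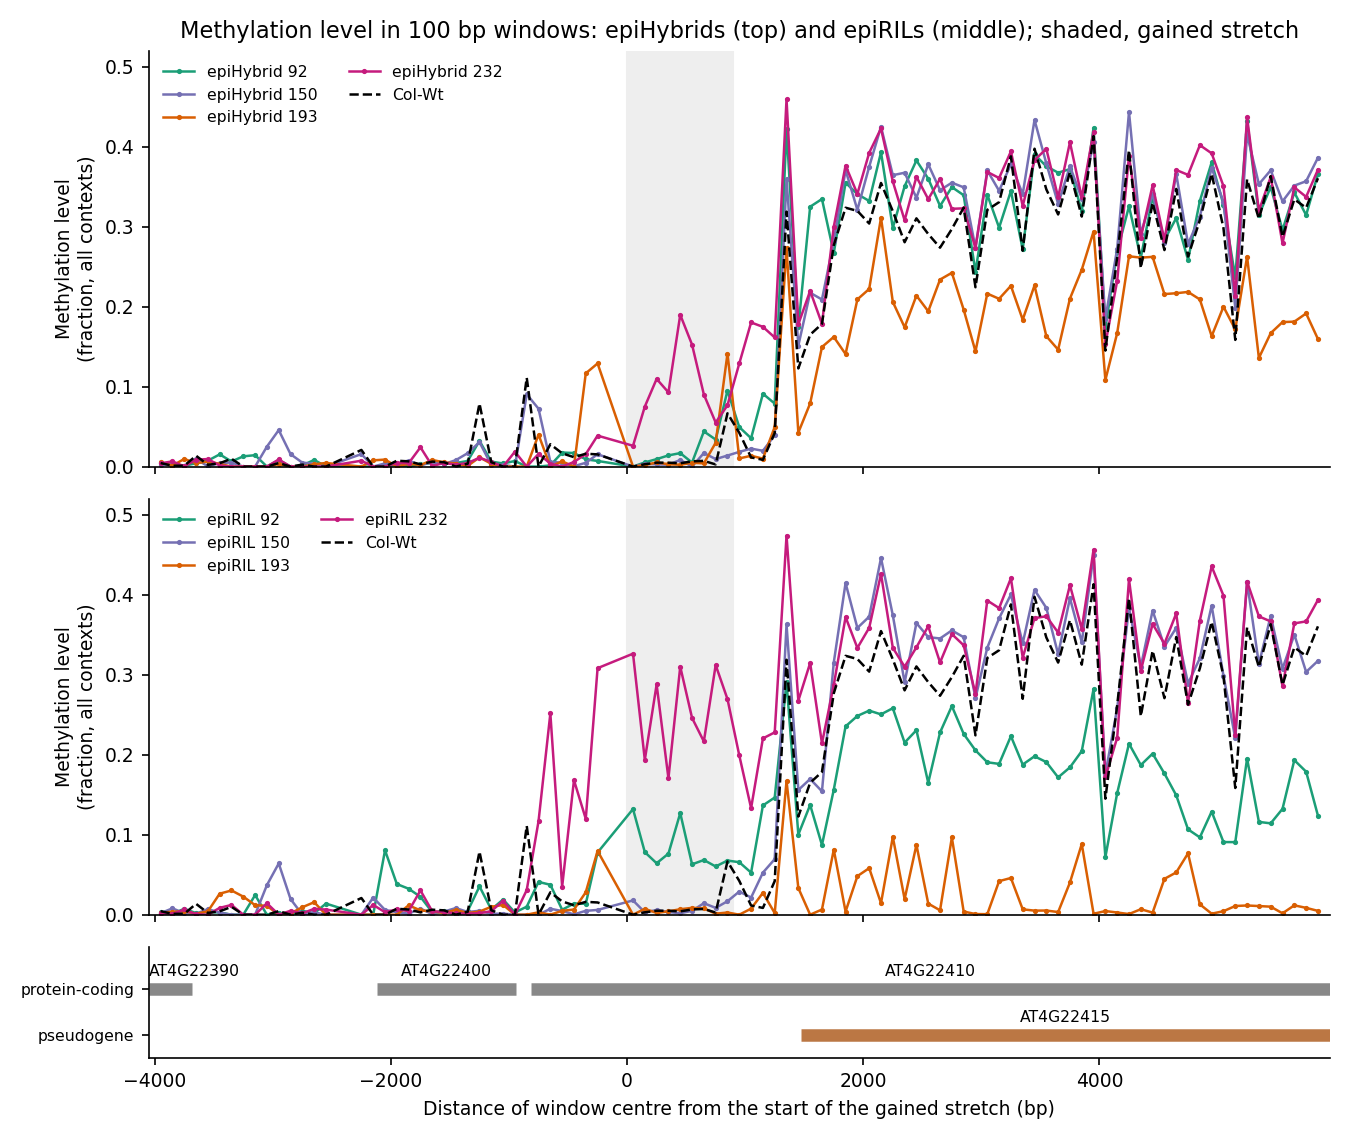
Methylation level (fraction of 0 to 1, all contexts) in 95 windows against the distance of the window centre from the start of the gained stretch (bp), for the 4 epiHybrids in the top panel and the 4 epiRILs in the middle one, with Col-Wt dashed in both; lines join measured windows, and bars at the foot are the annotated genes. EpiRIL 232 leaves the floor inside AT4G22410 well before the pseudogene. EpiRIL 193 averages 0.0240 over the pseudogene, with 0.0973 in its highest window, where Col-Wt averages 0.305 over 44 windows.

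The gained stretch was almost free of methylation in Col-Wt and methylated throughout in epiRIL 232. EpiHybrid 232 had less than its epiRIL, and epiRIL 92 read above Col-Wt in every window at a lower level. The level in epiRIL 232 was 0.259 ± 0.0559 (SD over 9 windows), from 0.171 to 0.326, against 0.0111 ± 0.0209 in Col-Wt, from 0 to 0.0667. The lowest window of epiRIL 232 was thus above the highest of Col-Wt. EpiRIL 232 was also above all 7 columns that are not of line 232 in 9 of 9 windows. The 7 windows at least 0.2 above Col-Wt read 0.217 or more in epiRIL 232, and the 2 short of that limit, at 11818951 and 11819151, read 0.194 and 0.171. The highest window of epiRIL 232, at 11818851 to 11818950, had 0.326 from 12 cytosines, against 0 from 3 cytosines in Col-Wt. Across all 95 windows 10 were higher by at least 0.2 in epiRIL 232, where the share over 19614 windows of the table was 0.194%. The contrast of epiRIL 232 with Col-Wt chose the stretch. Nothing is read from this count or from epiRIL 232 being highest in 9 of 9 windows.

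EpiHybrid 232 averaged 0.0964 ± 0.0495 in the gained stretch, from 0.0260 to 0.190. That is 37.2% of the epiRIL 232 level, and every one of the 9 windows lay between epiRIL 232 and Col-Wt. Set on a scale that is 1 at the epiRIL, 0.5 at the mid-parent level and 0 at Col-Wt, the position of epiHybrid 232 was 0.344. The mid-parent level was 0.135, and 6 of 9 windows of the hybrid were below it and 3 above. By at least 0.1, 2 of 9 were below it and 0 above, where 0.469% and 0.811% of all windows of the table were past these limits. No window of the region was higher than Col-Wt by 0.2 in epiHybrid 232, against 0.122% in the table. In the window at 11819251 to 11819350 epiHybrid 232 had its highest level, 0.190, against 0.310 in epiRIL 232 and 0.00416 in Col-Wt. In the window at 11819551 to 11819650 it had 0.0551, against 0.312 in epiRIL 232 and 0.00271 in Col-Wt. The order of windows in the hybrid did not follow that in its epiRIL: the correlation between them over the 9 windows was r = -0.03, a description only.

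EpiRIL 92 read 0.0819 ± 0.0277 in the gained stretch, from 0.0603 to 0.132, against 0.0111 in Col-Wt. It was above Col-Wt in 9 of 9 windows and above the other 6 lines not of line 232 in 8 of 9, although none of its windows reached the limit of 0.2, which 0.209% of the table's windows did in this line. EpiHybrid 92 read 0.0248 ± 0.0300, below epiRIL 92 in 8 of 9 windows and above Col-Wt in 7. Lines 150 and 193 stayed near the floor in nearly all windows. EpiHybrid 150 had 0.00634 and epiRIL 150 0.00849, and neither passed 0.0179 in any window. EpiHybrid 193 had 0.0214 and epiRIL 193 0.00456, and the mean of epiHybrid 193 rests on 1 window, at 11819651 to 11819750, with 0.141 from 12 cytosines. EpiHybrid 92 (0.0951) and Col-Wt (0.0667) also had their highest level of the stretch in that window. Without the first and last windows, epiHybrid 193 averaged 0.00728 and Col-Wt 0.00477. In order of level the stretch therefore ran from epiRIL 232 through epiHybrid 232 and epiRIL 92 to epiHybrid 92, with the other 4 epiHybrid and epiRIL columns and Col-Wt below. The windows of epiHybrid 232 and epiRIL 92 overlapped, and so did those of the 6 lowest columns.

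**Figure D2:**
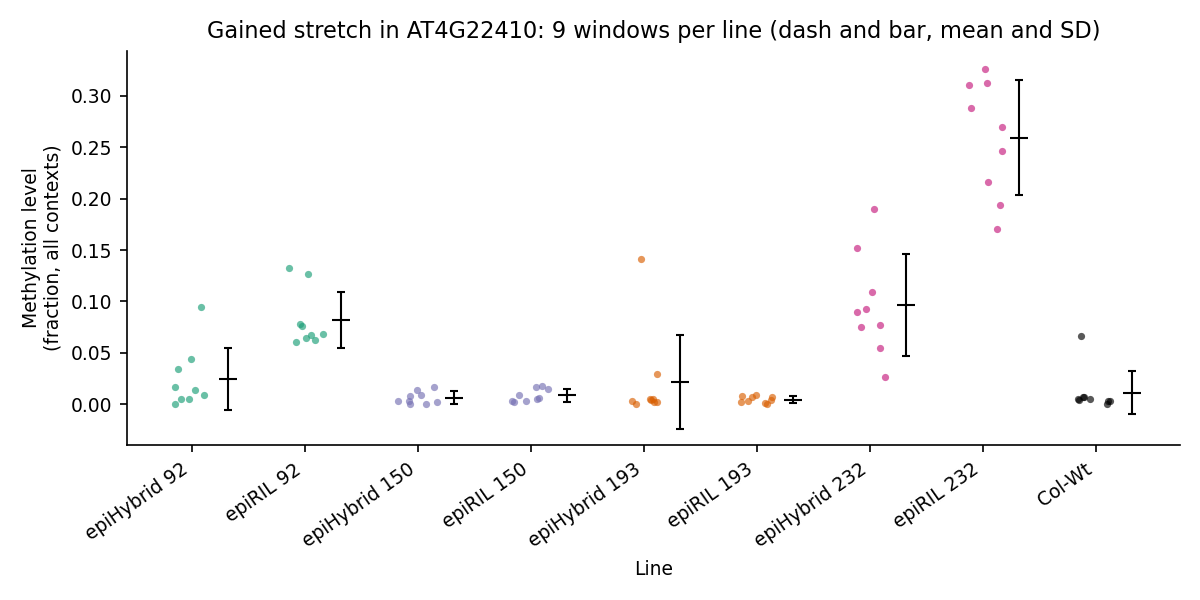
Methylation level (fraction of 0 to 1, all contexts) in each of the 9 windows of the gained stretch (points) for 8 lines and Col-Wt, with the mean and the SD over windows beside them. In this stretch, chosen where epiRIL 232 read above Col-Wt, epiRIL 232 lies between 0.171 and 0.326, above every window of the 7 lines not of line 232.

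The gain in epiRIL 232 was not limited to the stretch, and its share in the hybrid changed along the gene. The neighbouring parts described here were drawn after the values had been seen. In the 30 windows below AT4G22410, from 11814851 to 11818050, epiHybrid 232 averaged 0.00425, epiRIL 232 0.00623 and Col-Wt 0.00972, and the highest window of any line was 0.111, in Col-Wt from 6 cytosines. AT4G22400, whose 12 windows lie in this part, stood at 0.00674 for epiHybrid 232, 0.00657 for epiRIL 232 and 0.00970 for Col-Wt. EpiRIL 92 averaged 0.0208 over this gene, with 0.0805, 0.0383 and 0.0325 in the windows at 11816751, 11816851 and 11816951, near its level in the gained stretch in the first of them.

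Inside the low end of AT4G22410, at 11818051 to 11818650, epiRIL 232 averaged 0.167 ± 0.0992 over 6 windows, against 0.0146 ± 0.00901 in Col-Wt, and was above Col-Wt in 6 of 6. EpiHybrid 232 read 0.0133 ± 0.0140 there, lower than epiRIL 232 in 6 of 6 windows and not separated from Col-Wt (above it in 2, below it in 4). The window at 11818551 to 11818650 had 0.0387 for epiHybrid 232, 0.308 for epiRIL 232 and 0.0153 for Col-Wt. A further window, at 11818651 to 11818750, had no level in epiRIL 150 but 0 for epiHybrid 232, 0.120 for epiRIL 232 and 0 for Col-Wt, the last from 2 cytosines. The next had none in any line. Line 193 also left the floor at the end of this part: in the window at 11818551 epiHybrid 193 had 0.129 and epiRIL 193 had 0.0797, and at 11818451 they had 0.117 and 0.0280, against 0.0161 in Col-Wt. EpiRIL 92 had 0.0778 in the window at 11818551. The other 2 windows with a missing level, at 11816351 to 11816550, read 0 in both lines of 232.

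Averaged over parts, the hybrid came nearer to its epiRIL towards the pseudogene, but not steadily from window to window. It had 0.190 against 0.310 in epiRIL 232 at 11819251, then 0.0551 against 0.312 at 11819551 and 0.0767 against 0.270 at 11819651. In the outer 4 windows of the gained stretch epiHybrid 232 averaged 0.0759, epiRIL 232 0.245 and Col-Wt 0.00319. Over the inner 5 the hybrid had 0.113, epiRIL 232 had 0.271 and Col-Wt had 0.0175. Over the 4 windows that follow, at 11819751 to 11820150, the hybrid reached 0.161 beside 0.195 for epiRIL 232 and 0.0261 for Col-Wt. The position of the hybrid was -0.0085 in the low end of the gene, 0.301 and 0.376 in the 2 pieces of the stretch and 0.800 in the last 4 windows, where 4 of 4 windows of the hybrid were above the mid-parent level. The parts hold 4 to 6 windows each and have no replicate, so this order was not tested.

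In line 92 the share of the epiRIL level found in the hybrid showed no steady order even over the means of these parts. EpiHybrid 92 had 27.5% of the epiRIL 92 level in the low end of the gene (0.00870 against 0.0317), 8.14% in the outer 4 windows of the stretch (0.00714 against 0.0877), 50.4% in the inner 5 (0.0390 against 0.0773) and 63.5% in the 4 that follow (0.0637 against 0.1003). Without the window at 11819651, where epiHybrid 92 read 0.0951 from 12 cytosines, the inner share was 31.3%. With the Col-Wt mean subtracted, epiHybrid 92 had -0.0059, 0.0040, 0.0215 and 0.0376 in these parts in turn, a rising order. EpiRIL 92 had 0.0171, 0.0845, 0.0598 and 0.0743. This order was not tested either. In those last 4 windows epiRIL 150 read 0.0431 ± 0.0220 and epiHybrid 150 0.0250 ± 0.00966, against 0.0261 ± 0.0186 in Col-Wt, so epiRIL 150, epiHybrid 150 and Col-Wt were also above their means in the gained stretch. EpiRIL 193 read 0.00922 there and epiHybrid 193 0.0208.

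**Figure D3:**
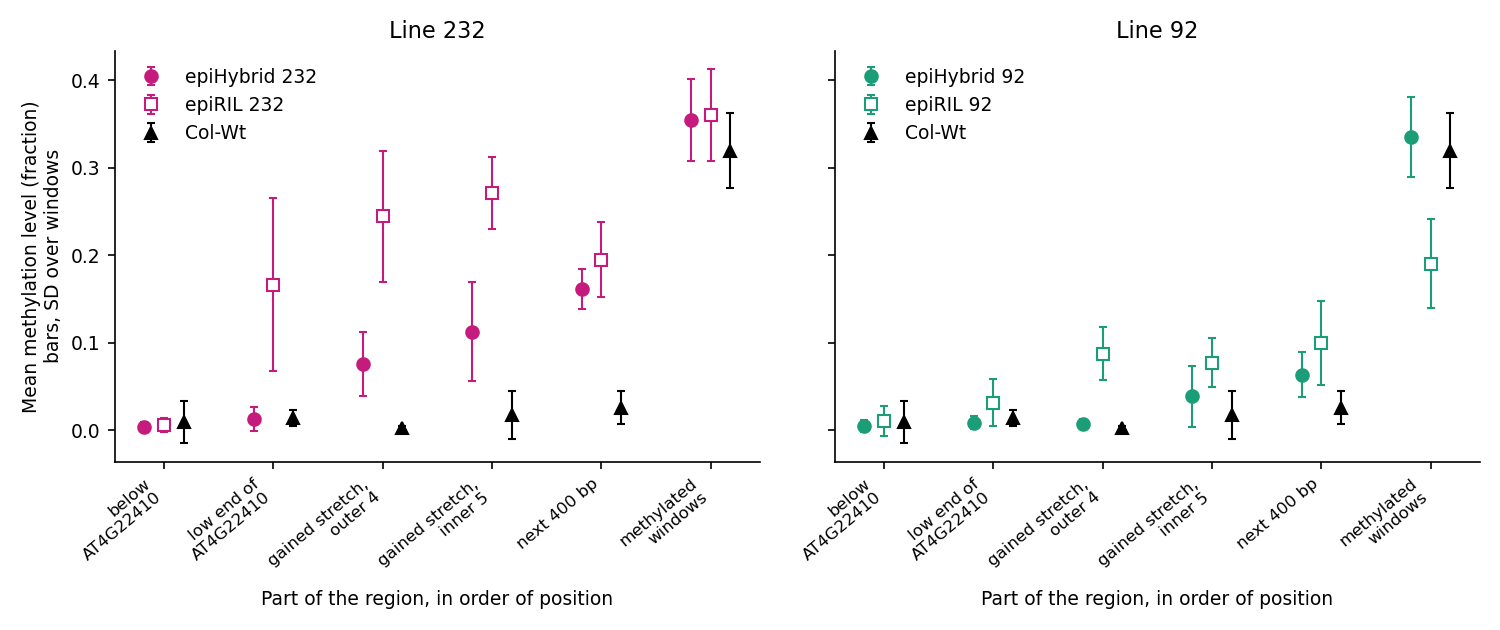
Mean methylation level (fraction, bars show the SD over windows) in 6 consecutive parts of the region, from the windows below AT4G22410 to the methylated windows, for epiHybrid, epiRIL and Col-Wt of line 232 (left) and line 92 (right). EpiHybrid 232 has 0.0133 in the first windows of the gene and 0.161 just before the methylated windows, while epiRIL 232 already has 0.167 at the low end.

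At the edge of the methylated windows Col-Wt had 0.0420 in the window that starts at 11820051 and 0.319 in the next, at 11820151. In the first of these the lines of 232 were already well above Col-Wt, with 0.161 in epiHybrid 232 and 0.228 in epiRIL 232. The second window was the highest of the whole region in both lines of 232 and in both epiRIL 92 and epiRIL 193. It stood at 0.459 in epiHybrid 232, 0.474 in epiRIL 232, 0.291 in epiRIL 92 and 0.167 in epiRIL 193. Just above it, 3 windows at 11820251 to 11820550 were under the limit in Col-Wt, with 0.123, 0.165 and 0.178. EpiHybrid 92 read 0.174, 0.325 and 0.335 in them, against 0.1003, 0.137 and 0.0871 in epiRIL 92. EpiHybrid 232 read 0.178, 0.220 and 0.179 there, against 0.268, 0.315 and 0.214 in epiRIL 232. A pair of isolated windows, at 11822851 and 11823951, also fell under the limit, with 0.145 and 0.158 in Col-Wt, and every line that kept the surrounding windows had a dip at both.

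Over the pseudogene AT4G22415 the lines formed 3 levels. EpiRIL 193 had nearly no methylation, epiRIL 92 and epiHybrid 193 were intermediate, and all others were at or slightly above Col-Wt. In the 41 methylated windows epiRIL 193 averaged 0.0293 ± 0.0378 and epiRIL 92 0.190 ± 0.0507, against 0.320 ± 0.0427 in Col-Wt. EpiRIL 150 averaged 0.352 ± 0.0443 and epiRIL 232 0.360 ± 0.0522. As shares of Col-Wt, epiRILs 193, 92, 150 and 232 had 9.17, 59.5, 110.0 and 112.7%. EpiHybrid 193 had 64.8%, epiHybrid 92 105.0%, epiHybrid 150 110.2% and epiHybrid 232 110.9%. The highest window of epiRIL 193, 0.167, was under the lowest of Col-Wt, 0.224, whereas the windows of epiRIL 92, from 0.0908 to 0.291, overlapped those of Col-Wt, from 0.224 to 0.413. Because windows were taken for a high Col-Wt level, the Col-Wt mean can be too high.

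**Figure D4:**
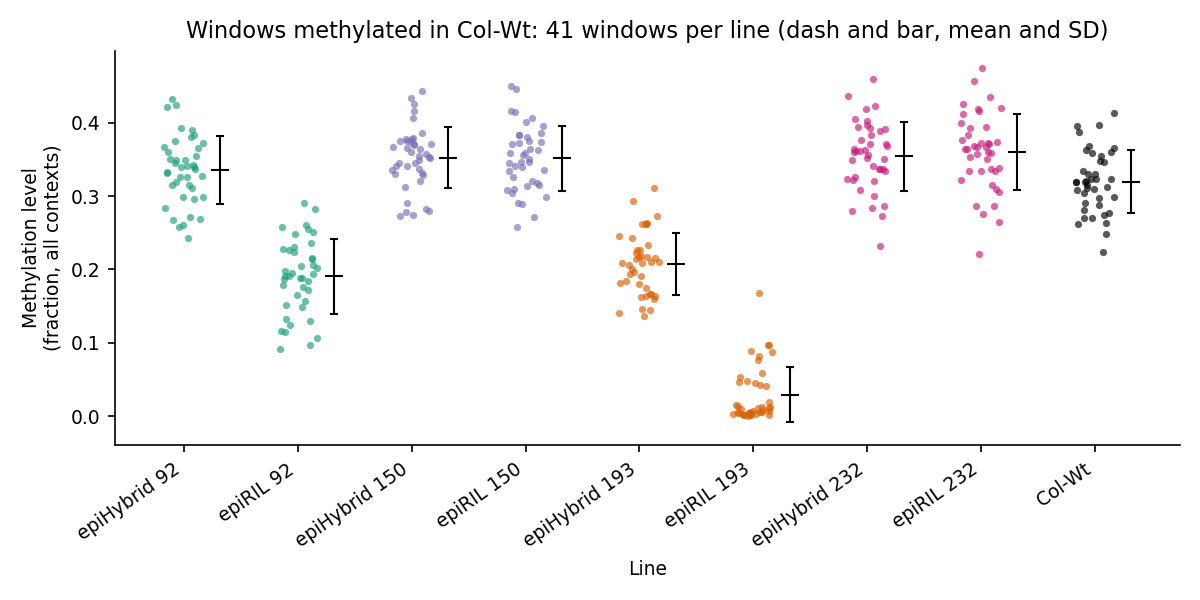
Methylation level (fraction of 0 to 1, all contexts) in each of the 41 windows methylated in Col-Wt (points) for 8 lines and Col-Wt, with the mean and the SD over windows beside them. EpiRIL 193 averages 0.0293 and epiRIL 92 0.190, while 6 columns, Col-Wt among them, average 0.320 or more.

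In epiRIL 193, 38 of the 41 methylated windows were lower than Col-Wt by at least 0.2, where 38.9% of the table's 1322 windows methylated in Col-Wt and 2.62% of all windows were. In epiRIL 92 it was 5 of 41, with 7.79% of such windows and 0.525% of all. Both contrasts had a part in the choice of the region. In epiRILs 150 and 232 it was 0 of 41, although 33.8 and 49.5% of the windows methylated in Col-Wt were lower in these lines over the whole table. In epiHybrid 193, 2 of 41 were lower by the limit, with 9.68% of the windows methylated in Col-Wt and 0.653% of all. In the rest of the chromosome 4 interval, 199 methylated windows, 75 were lower by at least 0.2 in epiRIL 193 and 39 in epiRIL 92. It was 7 in epiRIL 150, 14 in epiRIL 232 and 9 in epiHybrid 193. The level relative to Col-Wt in these 199 windows was 62.5% for epiRIL 193 and 63.5% for epiRIL 92, beside 103.2% for epiRIL 150 and 95.2% for epiRIL 232. The share of epiRIL 92 was thus much like that over AT4G22415, and that of epiRIL 193 far above it; neither difference was tested.

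The methylation left in epiRIL 193 was patchy. Its median window held 3.20% of the Col-Wt level, yet 14 of 41 windows read 0.04 or more, with a mean of 0.0733 ± 0.0344, and the other 27 averaged 0.00647 ± 0.00502, near the 0.00538 of this line in the table's weakly methylated windows. The Col-Wt level did not separate the 2 sets (0.316 and 0.322), and neither did that of epiHybrid 193 (0.219 and 0.201). This split at 0.04 was made after the values were seen. By position, epiRIL 193 held 17.5% of Col-Wt in the first 13 methylated windows, 5.59% in the next 13 and 5.48% in the last 15.

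In epiRIL 92 the share of the Col-Wt level went down along the pseudogene. It was 75.6% in the first 13 methylated windows (0.232 in epiRIL 92, 0.307 in Col-Wt), 59.7% in the next 13 (0.199 in epiRIL 92, 0.334 in Col-Wt) and 45.9% in the last 15 (0.146 in epiRIL 92, 0.318 in Col-Wt). Of the 41 windows, 41 were lower than Col-Wt, with shares from 30.5 to 91.6%, and the 5 windows lower by 0.2 were all in the last 15. The correlation of this share with position was r = -0.74 over 41 neighbouring windows, given as a description. The share went down with position in the other 7 columns too, with r from -0.17 in epiRIL 232 to -0.57 in epiRIL 150, and all 8 shares have the same Col-Wt level as denominator. The level itself had r = -0.70 with position in epiRIL 92, -0.46 in epiRIL 193 and 0.17 in Col-Wt, and between -0.23 and 0.04 in the other 6 columns. EpiHybrid 193, at a similar mean, held 69.6, 62.0 and 63.4% in the 3 pieces.

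**Figure D5:**
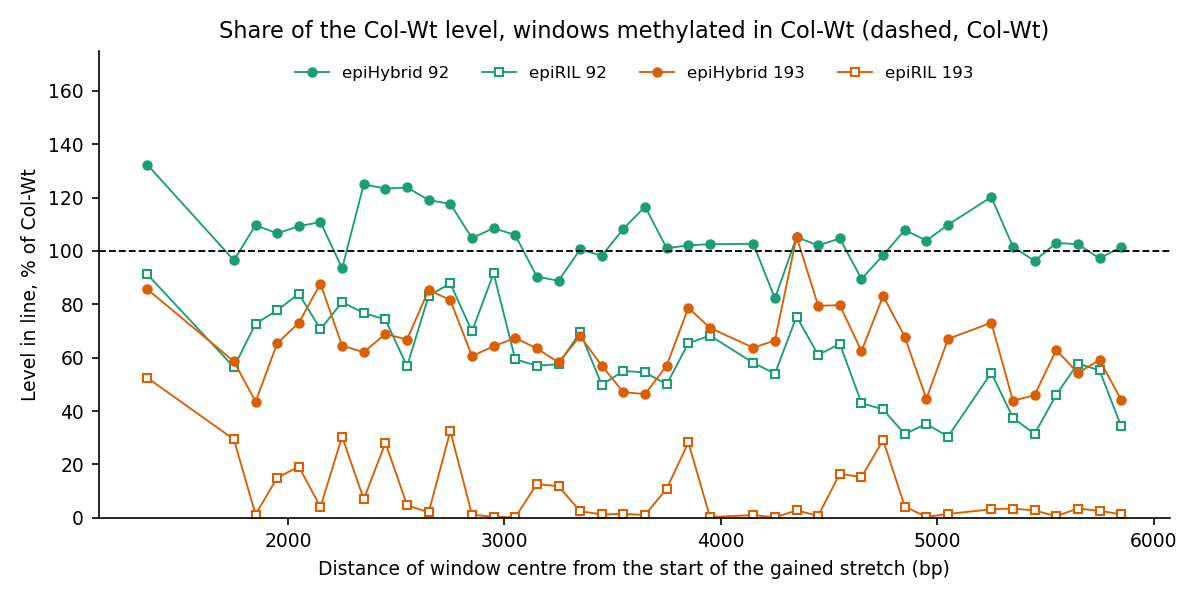
Level as a percentage of Col-Wt in the 41 methylated windows against the distance of the window centre from the start of the gained stretch (bp), for epiHybrid and epiRIL of lines 92 and 193; the dashed line is Col-Wt. EpiRIL 92 averages 75.6% over the first 13 windows and 45.9% over the last 15, and epiRIL 193 is mostly under 25%.

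All 4 hybrids averaged above the mid-parent level in the 41 methylated windows, by different amounts. EpiHybrid 150 was above it by 0.0168 ± 0.0241 (SD over windows), in 30 of 41 windows. EpiHybrid 232 was above it by 0.0146 ± 0.0276, in 26 of 41. The means were larger in lines 92 and 193. EpiHybrid 92 read 0.336 ± 0.0458, against 0.190 in epiRIL 92 and 0.320 in Col-Wt. It was above its epiRIL and above the mid-parent level of 0.255 in 41 of 41 windows and above Col-Wt itself in 31 of 41. Its mean difference from the mid-parent level was 0.0806 ± 0.0344 (SD over windows), and its position was -0.12, on the far side of Col-Wt. Windows at least 0.1 above the mid-parent level numbered 13 of 41, with 9.3% of the table's windows methylated in Col-Wt and 0.984% of all windows past that limit. In the rest of the chromosome 4 interval 58 of 199 methylated windows were past it, a similar share, so the count was not particular to AT4G22415. In those 199 windows epiHybrid 92 was above its epiRIL in 159, above the mid-parent level in 149 and above Col-Wt in 109. In the 41 windows of the region the difference from the mid-parent level was 0.0776 in the first 13, 0.0671 in the next 13 and 0.0950 in the last 15. EpiHybrid 92 held 113.1, 99.9 and 102.9% of Col-Wt in these pieces in turn, while the share kept in epiRIL 92 went down.

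EpiHybrid 193 read 0.207 ± 0.0424, against 0.0293 in epiRIL 193 and 0.320 in Col-Wt. It was between the parents in 40 of 41 windows and above Col-Wt in 1, at 11823151 to 11823250, with 0.261 in the hybrid, 0.00684 in epiRIL 193 and 0.248 in Col-Wt. Its mean was 0.0328 ± 0.0391 above the mid-parent level of 0.175, above it in 32 of 41 windows and below in 9, and its position was 0.387. By at least 0.1 it was above in 2 of 41, with 9.91% of the windows methylated in Col-Wt and 1.09% of all. It was 27 of 199 methylated windows in the rest of the chromosome 4 interval. In those 199 windows epiHybrid 193 was between the parents in 120, above the mid-parent level in 120 and above Col-Wt in 62. In the rest of the interval the position was 0.355 in line 193 and 0.0857 in line 92. In lines 150 and 232, whose epiRILs had kept these windows, the hybrid differed little from its epiRIL: both of line 150 averaged 0.352, and line 232 had 0.355 in the hybrid and 0.360 in the epiRIL. All 4 hybrids were set against the same Col-Wt column. In the methylated windows 5 columns, those of lines 150 and 232 and epiHybrid 92, lay above it on average, epiRIL 232 in 38 of 41 windows and epiHybrid 150 in 39. Whether the Col-Wt column read low here was not tested.

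Among lines with a like mean the windows shared a common profile. Over the 41 methylated windows the correlation with Col-Wt was r = 0.82 for epiHybrid 150, 0.77 for epiRIL 150, 0.78 for epiRIL 232, 0.71 for epiHybrid 92 and 0.71 for epiHybrid 232. It was 0.30 for epiHybrid 193, 0.17 for epiRIL 92 and -0.12 for epiRIL 193. With the columns of lines 150 and 232 and epiHybrid 92, r ranged from 0.33 to 0.51 for epiHybrid 193. It ranged from 0.24 to 0.51 for epiRIL 92, so part of the profile was shared across unlike means. These points share base composition and the number of cytosines per window, and no p is given. The window with the highest Col-Wt level, 0.413 at 11822751 to 11822850, was also high in epiRIL 150 (0.450), epiRIL 232 (0.457), epiHybrid 193 (0.294) and epiRIL 92 (0.282). It read 0.00118 in epiRIL 193.

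Averaged over annotated genes, AT4G22415 (44 windows) averaged 0.199 for epiHybrid 193 and 0.0240 for epiRIL 193, 0.328 for epiHybrid 92 and 0.180 for epiRIL 92, with 0.305 for Col-Wt. AT4G22410, whose 65 windows include those 44, averaged 0.263 for epiHybrid 232, 0.309 for epiRIL 232 and 0.218 for Col-Wt. A mean over the gene thus mixes the gain at its low end with the level over the pseudogene.

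Over the 9 lines, 30 other genes of the table had at least 5 windows and a range of at least 0.1. The pattern most like that of the methylated windows was in the pseudogene AT4G21360, at the other end of the chromosome 4 interval, with r = 0.996 over the 9 lines. Its mean was 0.191 for epiHybrid 193 and 0.00609 for epiRIL 193, 0.317 for epiHybrid 92 and 0.164 for epiRIL 92, with 0.280 for Col-Wt. The lncRNA gene AT4G07040 followed with r = 0.93 and the pseudogene AT3G26483 with r = 0.42. For the gained stretch the lncRNA gene AT3G04935 had r = 0.86, but at a level far above the floor (0.287 for epiHybrid 232 and 0.390 for epiRIL 232, with 0.235 for Col-Wt), and the next, AT3G25727 and AT3G09445, had r = 0.44 and 0.30. These lines share Col-Wt ancestry, and the values are descriptions without a p.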

How the data were processed

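Methylation was measured by bisulfite sequencing in 18 libraries of 9 lines. In the deposited table the methylation level of a window is a fraction, 1 column per line, beside the number of cytosines read. The authors used cutadapt, BS-Seeker2 and Bowtie2 with the build TAIR10, per the submitters' processing notes; versions are not given in the sources used here. A deposited score, the hybrid level minus the mid-parent level, equalled within 5.55e-16 the value computed here from the mean of epiRIL and Col-Wt. The other 8 columns, mid-parent values and log2 ratios, were not used.

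Members and lists were chosen with earlier results of these data known. Windows were kept that do not overlap and have a level in all 9 lines. A window was called lower or higher at 0.2 from Col-Wt, and a hybrid above or below at 0.1 from the mid-parent level. The named genes were AT4G22410, AT4G22415, the other genes in the region, and the 3 genes most like each part by Pearson r over the lines, with at least 5 windows and a range of 0.1. Windows of highest level in epiRIL 232 or Col-Wt were named, and further windows after their values were seen. With 1 pooled column per line no test between lines was possible. Genes were assigned by window middle from the RefSeq table of TAIR10.1; gene cover correlated with cytosines best without a shift (r = 0.364, against 0.316 and 0.319 at 250 bp either way). Calculations used Python 3.11.15 and pandas 2.3.3 and were tested on simulated data.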

Additional observations from a re-analysis of the deposited data

How the results depend on the processing

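Levels, shares and positions were recomputed with at least 10 cytosines per window, with overlapping windows, weighted by cytosines, with each line's background subtracted, with other Col-Wt limits, with windows chosen by the mean of Col-Wt, epiRIL 150 and epiHybrid 150 (which gave the same 41 windows, so these 8 values test nothing further) and with the stretch 1 window shorter or longer at either end. No methylated window had under 10 cytosines in any line, so that setting could not change the shares and positions of these windows. Each move was set against the SD over windows, which is not a replicate error. For the position of epiHybrid 92, -0.12, this SD was 0.675, which a move could hardly exceed. Of the 122 recomputed values, which include those that could not move, 121 moved by less than the SD. Near the floor this says little, since the SD is close to the mean or above it. EpiHybrid 193, with an SD of 0.0459, went from 0.0214 to 0.00728 with the stretch shortened. EpiHybrid 150, with an SD of 0.00611, went from 0.00634 to 0.00071 with background subtracted. The value that moved by more was that of epiRIL 193 in the gained stretch, -0.00082 with background subtracted. The position of epiHybrid 232 there ranged from 0.344 to 0.389, and the Col-Wt level from 0.00321 to 0.0142, so no fold against it is given. Counts over the 95 windows depend on the limit. At 1.5 times the limit, the 10 windows higher in epiRIL 232 became 3, and those lower in epiRIL 193, epiRIL 92 and epiHybrid 193 became 18, 0 and 0, where they had been 38, 5 and 2. Above the mid-parent level, epiHybrids 92, 193 and 232 then had 3, 0 and 0 windows in place of 16, 3 and 2, and epiHybrid 232 had 0 below it in place of 4. With overlapping windows, which nearly doubles the windows counted, 19 were higher in epiRIL 232, 79 and 11 lower in epiRILs 193 and 92, and 33 and 6 above in epiHybrids 92 and 193; 1 window was then higher in epiHybrid 232, against 0. The share of the epiRIL level in the hybrid over the inner 5 windows of the stretch was recomputed without the last window, chosen after seeing the data: 31.3% in line 92, against 50.4%, and 44.9% in line 232. No paired analysis was possible because the table has 1 pooled column per line, and libraries could not be left out for the same reason. Read depth is unknown, and 12 of the 95 windows had under 10 cytosines in some line.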
